A study of Mus musculus with 9 samples.

Results

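Splicing factors are the RNA-binding proteins that decide which exons a transcript keeps, and 69 genes of this kind were followed in mouse hippocampus. They are the protein-coding genes of the deposited table named Srsf, Tra2, Srrm, Srpk, Hnrnp, Sf3a, Sf3b, U2af, Rbfox, Celf, Ptbp, Mbnl or Nova. The table lists 55471 genes. Counts above 0 were found for 33175 of them, 18409 of which were protein-coding. The families are 20 hnRNPs, 11 SR proteins, 9 SF3 subunits, 6 Celf proteins, 4 Srrm proteins, 3 Mbnl, 3 Ptbp, 3 Rbfox and 3 U2AF proteins, 3 SR protein kinases, 2 Nova proteins and 2 Tra2 proteins. A further 2 genes matched the names but had another biotype and were left out.

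Hippocampal RNA of female mice, 9 months old, was sequenced in 3 groups of 3 libraries. WT vehicle libraries came from C57BL/6J mice given blank solvent by mouth 4 times per week. 3xTg vehicle libraries came from mice labelled APPSwe/tauP301L/PS1M146V, given the same solvent on the same schedule, and LP-10d 3xTg libraries from 3xTg mice that received LP-10d orally on the same weekly schedule, 10 mg/kg per dose, over 1 month. The 3xTg line is a model of Alzheimer's disease whose APP and tau transgenes are driven by the Thy1 promoter, active mainly in neurons. The PS1 codon in the genotype labels goes up by 1 from library to library, from M146V to M151V over the 6 3xTg libraries, and is taken here as 1 genotype. Whether the replicates are separate animals is not stated, so the p-values measure the spread between these libraries only. The mice labelled C57BL/6J and 3xTg differ in the transgenes and may differ in strain background, which cannot be told apart. LP-10d is a code name for a compound that the series title ties to kinases, and the labels do not say which ones.

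SR proteins bind exonic enhancers through RNA recognition motifs and recruit the spliceosome through their arginine- and serine-rich tails, which SR protein kinases phosphorylate. Many hnRNPs act in the opposite direction, coating pre-mRNA and blocking splice sites, though both families can do either, depending on where they bind. U2AF and the SF3 complexes recognise the 3' splice site and branch point of introns of the major class. Rbfox, Nova, Celf, Mbnl and Ptbp proteins set exon choices that separate neurons from other cells, and the alternative exon of tau that gives its long microtubule-binding forms is a well-known target of several members.

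Of the 69 genes, 67 passed the filter on low counts over the 9 libraries. The other 2, Mbnl3 and U2af1l4, had summed counts of 10 and 16. The 9 libraries held 16582086 to 19170969 counts each. All 10 hippocampal marker genes were detected in every library, with summed levels of 735 to 1399 CPM (counts scaled to library size). WT vehicle replicate 3 stood apart, with 5.04% of its counts from mitochondrial genes against 2.28% to 2.86% in the others. In 3xTg vehicle replicate 2 the 10 markers of striatum and thalamus summed to 1026 CPM, against 117 to 339 CPM in the other libraries, and its hippocampal markers were the lowest of all libraries. The 339 CPM was that of WT vehicle replicate 3, and the next highest was 183 CPM, in WT vehicle replicate 1. The summed level of 6 choroid plexus markers was between 42.0 and 4348 CPM.

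The most abundant members per unit of gene length were Srrm2, a large spliceosomal scaffold of nuclear speckles, and Hnrnpa1, a splicing silencer. Srrm2 stood at a mean level of 88.1 FPKM (the deposited unit, which scales counts to gene length and library depth) and Hnrnpa1 at 84.1 FPKM over the 9 libraries. Srsf5 followed at 70.9 FPKM, then Rbfox1 at 61.4 and Celf3 at 56.4 FPKM. Among the tested members Celf1 was lowest at 1.73 FPKM, with Ptbp3 at 2.33 and Srsf1 at 2.43 FPKM. The order of the 2 leading genes does not hold beyond their spread, since Srrm2 ran from 77.2 to 131 FPKM and Hnrnpa1 from 71.0 to 95.3 FPKM over the libraries. FPKM divides by all annotated exon bases of a gene, so a gene with long, little-used exons reads lower.

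**Figure D1:**
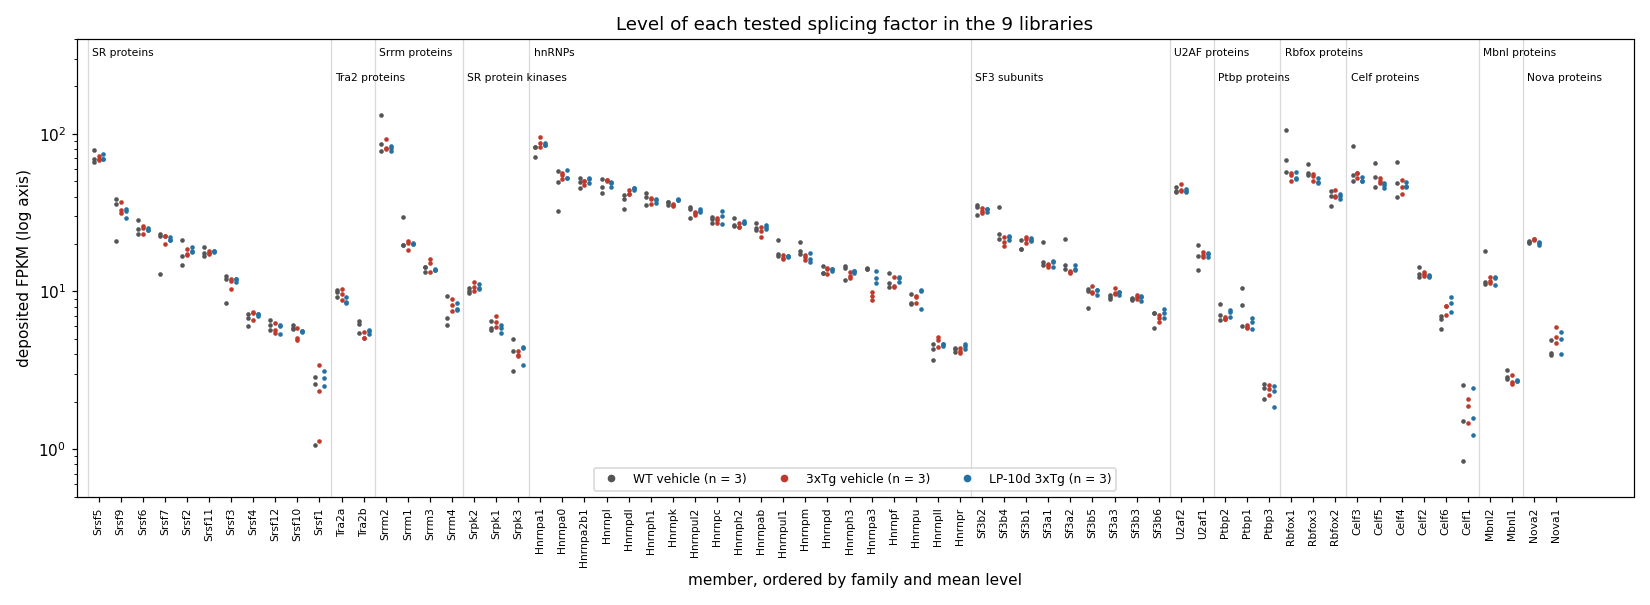
Deposited FPKM (log axis) of the 67 tested splicing factors, 1 point per library, coloured by group and ordered by family and mean level. Mean levels span from 1.73 FPKM for Celf1 to 88.1 FPKM for Srrm2; the 3 groups overlap for most genes, and Hnrnpa3 is one of the genes where they do not.

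The neuronal families were unevenly expressed among their members. Rbfox1, Rbfox3 (the protein known as NeuN) and Rbfox2, which share a target motif, stood at 61.4, 53.9 and 40.4 FPKM. Of the paired Nova genes, which encode the targets of a paraneoplastic autoantibody, Nova2 was at 20.7 FPKM and Nova1 at 4.81 FPKM, and the ratio of Nova2 to Nova1 was 4.81 ± 0.58, 4.10 ± 0.52 and 4.26 ± 0.79 (SD, n = 3 each) for WT vehicle, 3xTg vehicle and LP-10d 3xTg. Mbnl2 exceeded Mbnl1, 12.4 against 2.80 FPKM. Both are zinc-finger proteins that the repeat RNA of myotonic dystrophy sequesters. Ptbp2, the neuronal polypyrimidine-tract protein, was close to Ptbp1, the form that neurons switch off as they differentiate, at 7.15 and 6.87 FPKM. The ratio of Ptbp2 to Ptbp1 was 0.92 ± 0.22, 1.13 ± 0.04 and 1.16 ± 0.14 in the same order of groups, and the groups overlapped. Exons of genes on the opposite strand cover 20.7% of the exon bases of Ptbp1 and 31.7% of those of Nova2. The strand setting of the counts is not given, so reads of these genes cannot be told apart there. Srpk2, a brain-enriched SR protein kinase, was at 10.5 FPKM, above Srpk1 at 6.11 and Srpk3 at 4.06 FPKM. Tra2a exceeded Tra2b, 9.39 against 5.62 FPKM, both of them enhancer-binding relatives of the SR proteins.

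The spread between libraries of 1 group differed widely among members. Hnrnpk, a poly(C)-binding hnRNP, varied least, with a within-group SD of 0.03 on the log2 scale. Only 0.330% of the 908 tested genes within 1.5 times its level had a smaller SD. Srsf1, a founding SR protein, varied most. Its levels were 15.2, 5.92 and 17.6 CPM in the WT vehicle libraries, 6.42, 19.4 and 13.2 CPM in the 3xTg vehicle libraries and 14.2, 17.5 and 16.1 CPM in LP-10d libraries. Celf1, a regulator of exon choice and mRNA decay, came next, at 22.2, 6.92 and 13.6 CPM, then 12.3, 17.5 and 15.7 CPM, then 20.2, 10.1 and 13.3 CPM. For both genes the lowest library was WT vehicle replicate 2, the highest library was 3.27 and 3.20 times it, and the groups overlapped. No group difference of Srsf1 or Celf1 could be resolved at this spread: the SE of their log2 fold changes was 0.41 and 0.37 in 3xTg vehicle against WT vehicle.

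Whether the 3xTg genotype goes with other levels of splicing factors was asked by comparing 3xTg vehicle with WT vehicle. Hnrnpa3, an hnRNP A/B protein of mRNA packaging and transport, was the member with the clearest difference. It stood at 77.2, 73.8 and 80.2 CPM in the WT vehicle libraries and at 47.4, 49.8 and 52.7 CPM in the 3xTg vehicle libraries. In LP-10d libraries it was at 60.0, 71.6 and 66.2 CPM, between the other groups, and no library of any group overlapped another group. The log2 fold change in 3xTg vehicle was -0.62 ± 0.09 (SE), with an edgeR adjusted p of 0.0758, so it missed the 0.05 threshold. It was the sixth smallest p of all 17396 genes tested (rank 6). DESeq2 gave -0.63 with an adjusted p of 9.6e-07, which passed. DESeq2 called 2.24% of the 15691 genes it gave an adjusted p, and Hnrnpa3 was the 1 member among them.

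With edgeR 0 of the 67 members passed, against 0.00575% of all genes (1 gene). At an unadjusted p under 0.05 there were 8 members, or 11.9%, against 14.1% of all genes, so the members' share was no higher than the background. All 8 were lower in 3xTg vehicle: Hnrnpa3, Hnrnpm, Ptbp1, Rbfox1, Sf3a2, Sf3b4, Srsf10 and Tra2b. Of all genes, 7.08% were lower and 7% higher at that p. The members' median log2 fold change was -0.07 (all genes 0.00), and 44 members lay below 0 (49.8% of all genes did) and 23 above it (50.2% of all genes). By family, 15 of 20 hnRNPs, 6 of 9 SF3 subunits, 6 of 11 SR proteins and 3 of 3 Ptbp proteins lay below 0, and 2 of 2 Nova proteins above.

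**Figure D2:**
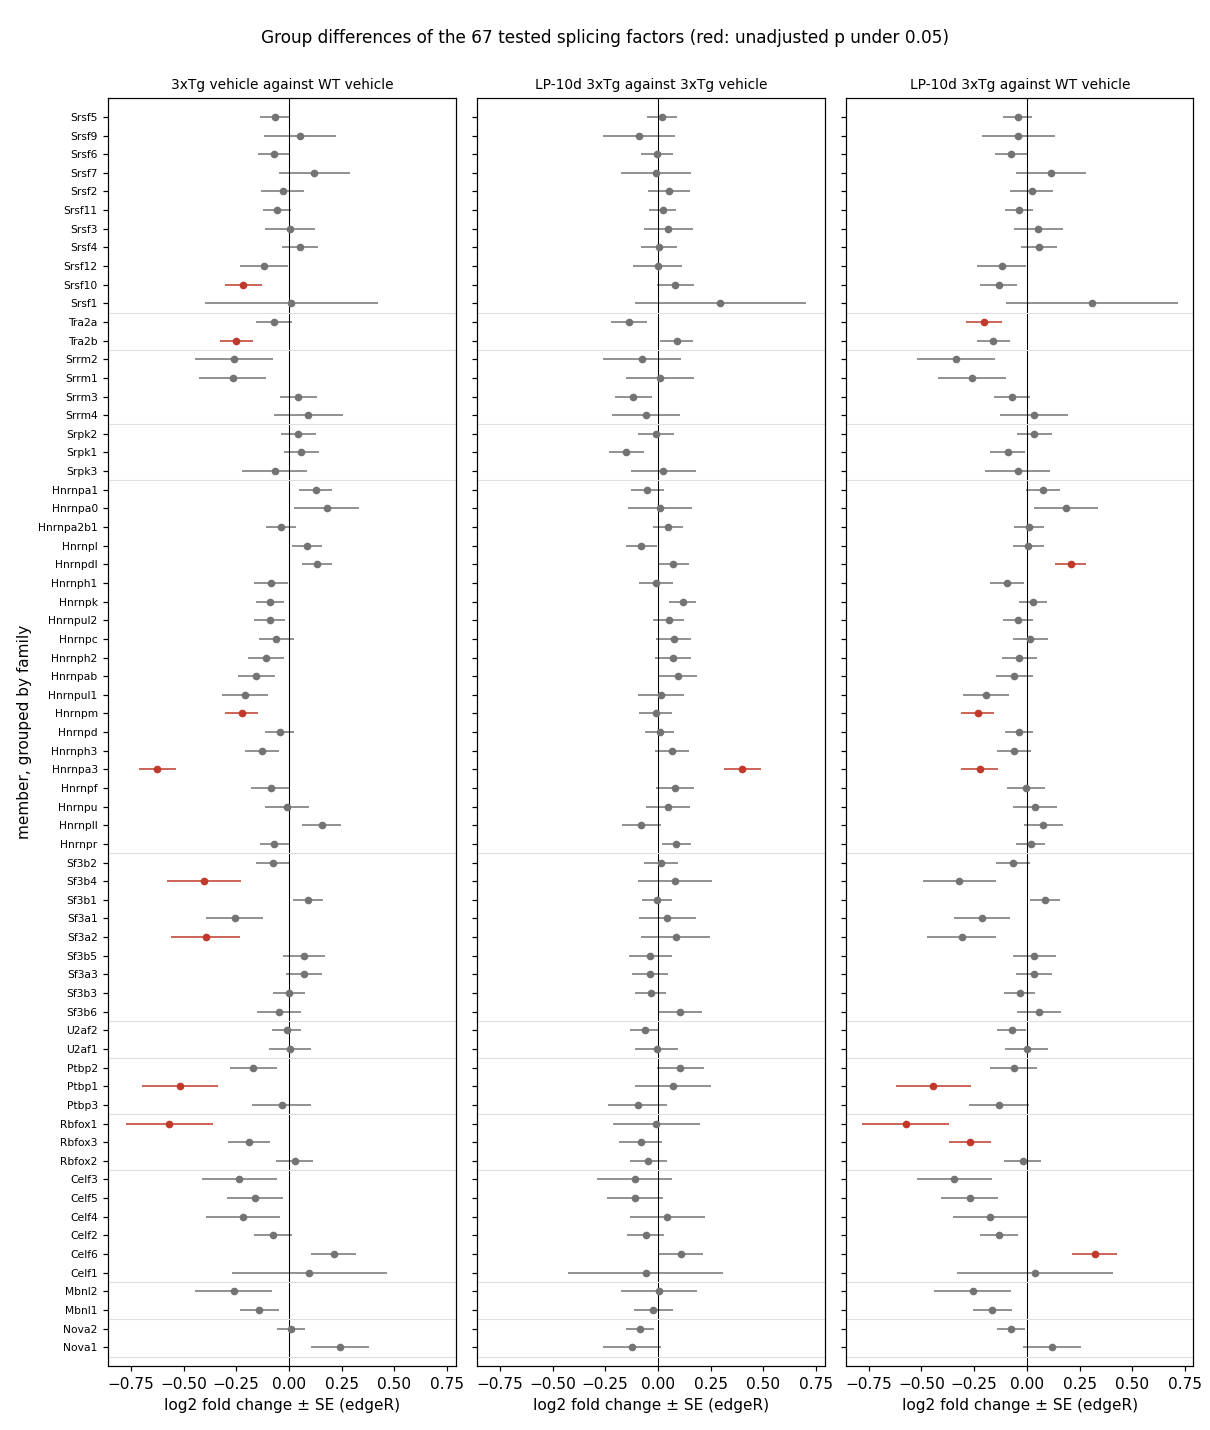
Log2 fold change ± SE (edgeR) of the 67 tested members in each comparison, grouped by family, with an unadjusted p under 0.05 in red. Hnrnpa3 lies at -0.62 in the left panel and at 0.40 in the middle one; no member passed the adjusted threshold, and the left and middle panels share the 3xTg vehicle libraries.

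Lower levels with groups that do not overlap were found for 9 members, 13.4%, against 7.99% of all genes, and higher ones for 2, or 2.99%, against 9.38%. The 9 were Hnrnpa3, Hnrnpc, Hnrnpk, Hnrnpm, Ptbp1, Sf3a1, Sf3a2, Srsf10 and Tra2b, and the 2 were Hnrnpdl and Hnrnpl. Tra2b, known for promoting inclusion of the alternative tau exon, was at 59.2, 58.1 and 53.6 CPM in the WT vehicle libraries and 46.7, 50.8 and 46.2 CPM in the 3xTg vehicle libraries. Its LP-10d libraries, at 51.7, 48.9 and 52.4 CPM, overlapped those of 3xTg vehicle. Its log2 fold change was -0.25 ± 0.08, with an edgeR adjusted p of 0.24. Hnrnpm, which binds GU-rich RNA, was at 142, 160.0 and 153 CPM in the WT vehicle libraries, 125, 130.3 and 134 CPM in the 3xTg vehicle libraries and 121, 137 and 128 CPM in LP-10d libraries. All 6 3xTg libraries lay below the 3 WT vehicle libraries. Srsf10, an SR protein that represses splicing when dephosphorylated, was at 41.9, 42.0 and 43.8 CPM, then 34.1, 40.8 and 35.0 CPM, then 38.7, 38.1 and 39.6 CPM. Here too each 3xTg library lay below each WT vehicle library, with 3xTg vehicle replicate 2 the nearest to them.

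**Figure D3:**
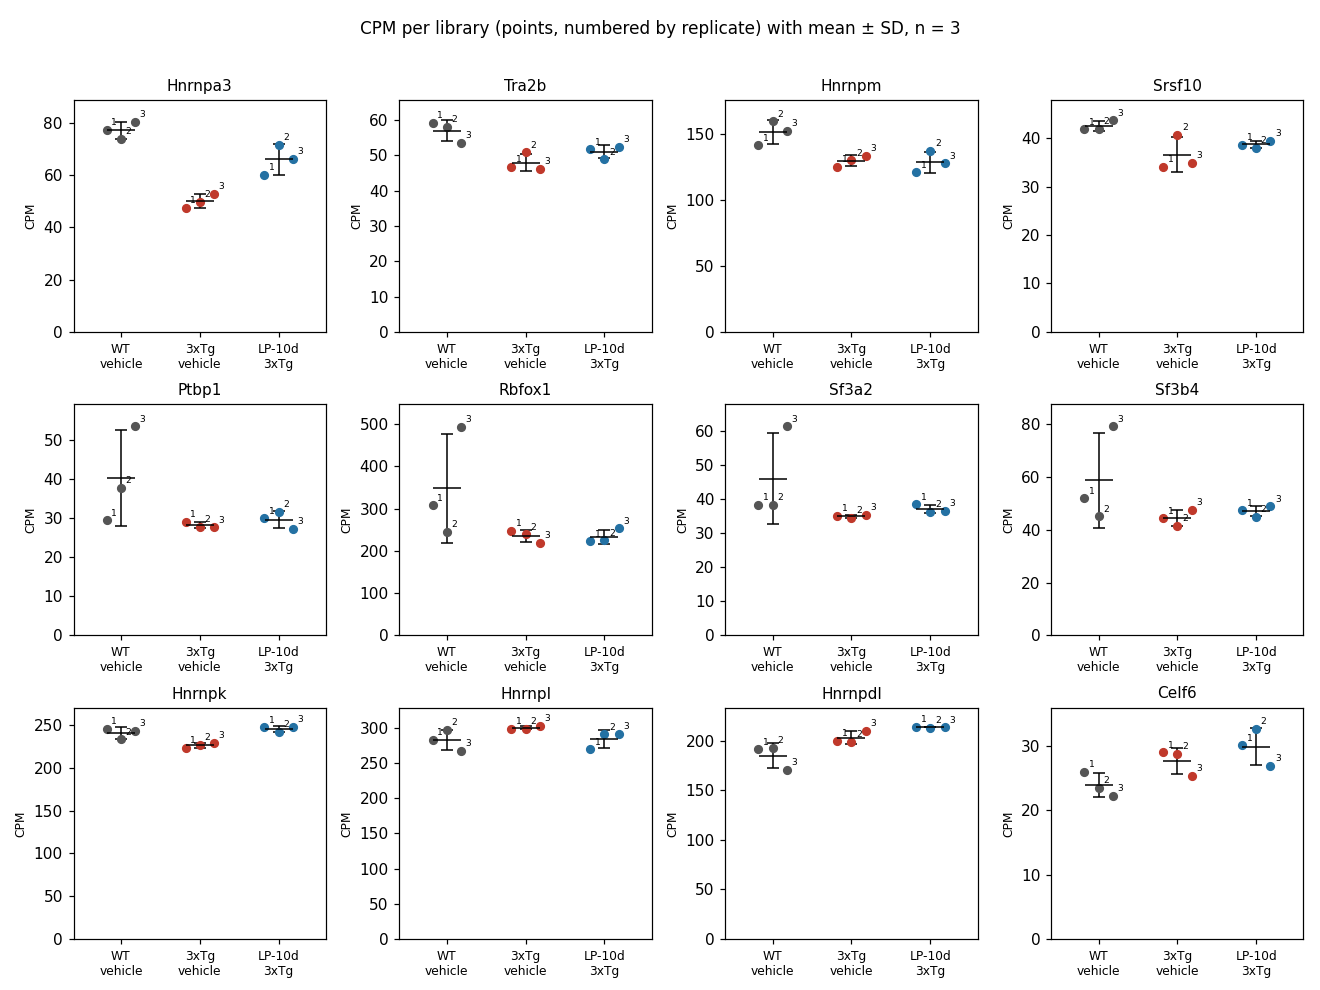
CPM of 12 members in each library, points numbered by replicate, with the mean ± SD of each group of 3. In Hnrnpa3 the 3 groups are separate, at 77.1, 49.98 and 66.0 CPM on average. WT vehicle replicate 3 lies above every other library in Ptbp1, Rbfox1, Sf3a2 and Sf3b4, and by a smaller margin in Hnrnpa3 and Srsf10.

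Part of the differences against WT vehicle rested on WT vehicle replicate 3. This library was the highest of the 9 for 29 of the 67 members, 43.3% against 26.3% of all genes, and the lowest for 16, 23.9% against 28.3%. Rbfox1, a neuronal exon regulator, was at 308, 245 and 493 CPM in the WT vehicle libraries, 247, 239.9 and 219 CPM in the 3xTg vehicle libraries and 223, 225 and 253 CPM in LP-10d libraries. Its WT vehicle and 3xTg vehicle values overlapped, and without replicate 3 its log2 fold change in 3xTg vehicle went from -0.57 to -0.24. Ptbp1 was at 29.5, 37.9 and 53.6 CPM in the WT vehicle libraries, 29.1, 27.8 and 27.7 CPM in the 3xTg vehicle libraries and 30.0, 31.6 and 27.4 CPM in LP-10d libraries. Its log2 fold change went from -0.52 to -0.27.

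Sf3a2 and Sf3b4, subunits of the branch-point complexes, followed the same course. Sf3a2 was at 38.3, 38.3 and 61.4 CPM in the WT vehicle libraries and 35.0, 34.5 and 35.4 CPM in the 3xTg vehicle libraries, and its log2 fold change went from -0.39 to -0.14 without WT vehicle replicate 3. Sf3b4, at 51.9, 45.2 and 79.2 CPM and then 44.4, 41.5 and 47.5 CPM, went from -0.40 to -0.13. Sf3a1, another subunit, went from -0.26 to -0.06. Tra2b, Hnrnpm and Srsf10 did not follow it, with -0.30, -0.22 and -0.20 without this library, nor did Hnrnpa3 with -0.60.

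Of the remaining hnRNPs with the smallest p in 3xTg vehicle against WT vehicle, Hnrnpul1 was at 149, 146 and 196 CPM, then 140.3, 138 and 147 CPM, then 141, 143 and 145 CPM. Hnrnpab stood at 70.7, 68.7 and 81.2 CPM, then 70.8, 66.6 and 60.7 CPM, then 70.1, 71.9 and 69.7 CPM. Hnrnpll, a relative of Hnrnpl, was at 55.8, 49.1 and 46.0 CPM, then 51.6, 57.1 and 59.3 CPM, then 53.3, 51.6 and 54.2 CPM. WT vehicle and 3xTg vehicle overlapped for all 3 genes, and WT vehicle replicate 3 was the highest library for Hnrnpul1 and Hnrnpab and the lowest for Hnrnpll. Without it their log2 fold changes went from -0.21 to -0.06, from -0.15 to -0.08 and from 0.16 to 0.09.

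Other members far from the rest in WT vehicle replicate 3, chosen after their values were seen, were Srrm2 at 1789 CPM against 995 to 1184 CPM in the other 8 libraries, and Celf4 at 604 against 334 to 431 CPM. Srsf7 was at 48.6 against 70.8 to 82.4 CPM, Hnrnpa0 at 92.7 against 136 to 155 CPM and Srsf9 at 37.0 against 48.6 to 61.8 CPM. The members highest in this library had a median gene model of 6945 bases and those lowest in it one of 3556 bases, against 5012 and 3311 bases over all genes. Whatever their level in this library, the 67 members had a median of 6406 bases and all genes tested one of 4019 bases. The part of transcript length in these differences was not tested.

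**Figure D4:**
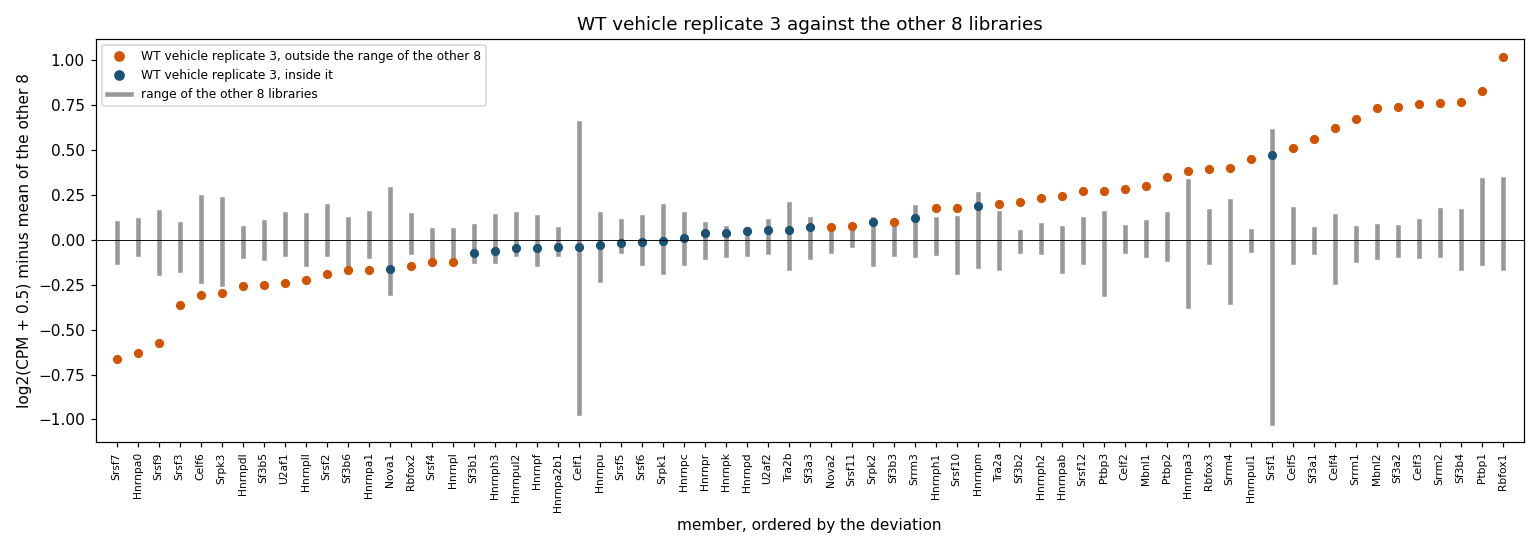
Deviation of WT vehicle replicate 3 from the mean of the other 8 libraries for each of the 67 members, in log2(CPM + 0.5), with the range of the other 8 as grey bars. Points outside the grey bars are 29 members above and 16 below; Rbfox1 is the farthest above and Srsf7 the farthest below.

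Some cell type markers moved with the groups as well. The 6 astrocyte markers, all detected in every library, summed to 1421 to 1531 CPM in the WT vehicle libraries, 1194 to 1301 CPM in the 3xTg vehicle libraries and 1368 to 1458 CPM in LP-10d libraries, so that 3xTg vehicle was lowest, as for Hnrnpa3, while the other groups overlapped. The 6 oligodendrocyte markers summed to 7013 to 7511, 5025 to 6351 and 5855 to 7824 CPM, and the 5 markers of oligodendrocyte precursors to 391 to 423, 333 to 363 and 348 to 397 CPM. Haemoglobin transcripts (4 genes) summed to 32.4 to 72.1, 103 to 172 and 70.5 to 111 CPM. For the 6 neuron markers the groups overlapped, with sums of 4319 to 5830, 5117 to 5254 and 4853 to 5338 CPM in the same order. Overlap was also found for the 6 microglia markers and the 6 markers of endothelium and mural cells. The 6 neocortex markers summed to 184 to 257, 269.6 to 387 and 229 to 312 CPM, so that 3xTg vehicle lay above WT vehicle while LP-10d libraries overlapped both, and 0 of the 6 had a lower mean in 3xTg vehicle. Of the 10 hippocampal markers 9 had a lower mean in 3xTg vehicle than in WT vehicle, 2 of them with groups that do not overlap, and their sums were 1151 to 1399, 735 to 1227 and 1079 to 1127 CPM. The part of these shifts in the members' differences was not tested. In whole tissue, fewer cells of a type and less RNA per cell cannot be told apart.

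Hnrnpa3 has many near-identical copies, so its counts were set beside theirs, a check added after its values were seen. In the GENCODE M21 transcripts 28 genes, 27 of them pseudogenes, matched it over at least 200 bases at 95% identity or more. Together they held 4299 counts, beside 10426 counts for Hnrnpa3 itself. Their summed level was 25.9 ± 4.44 CPM in the WT vehicle libraries, 26.2 ± 1.48 CPM in the 3xTg vehicle libraries and 27.4 ± 1.43 CPM in LP-10d libraries (SD, n = 3 each), and the groups overlapped. Hnrnpa3 and these genes summed to 103 ± 2.54, 76.2 ± 4.11 and 93.3 ± 7.06 CPM, so the lower 3xTg vehicle value was not matched by a higher value of the copies. How reads were divided between them is not given in the sources used here, and the level of Hnrnpa3 itself is uncertain to that extent.

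**Figure D5:**
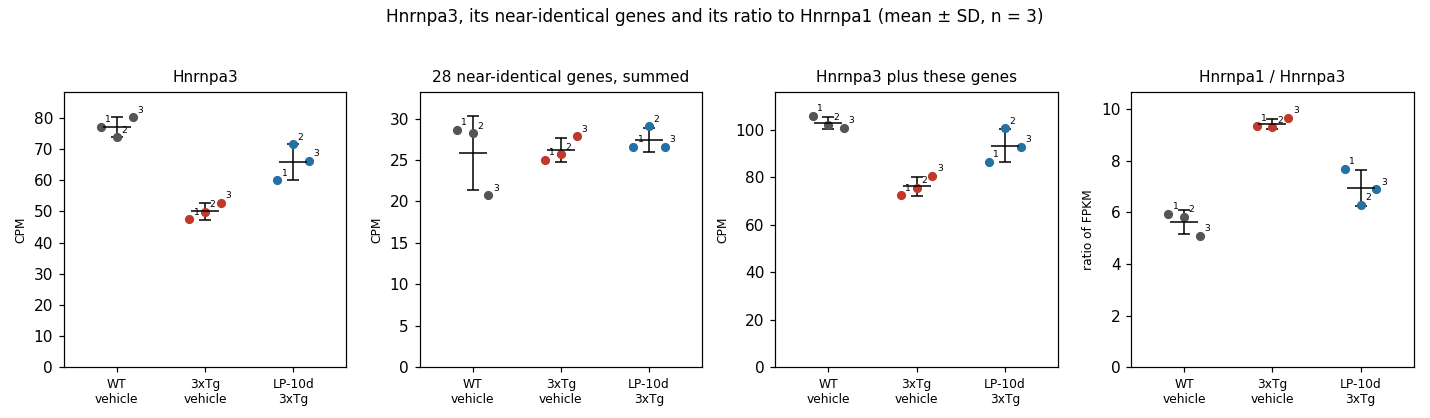
CPM per library of Hnrnpa3, of its 28 near-identical genes summed and of both together, and the FPKM ratio of Hnrnpa1 to Hnrnpa3, with the mean ± SD of 3 libraries. The copies stay between 20.7 and 29.0 CPM in all libraries, while the ratio is 5.62, 9.44 and 6.96 on average in WT vehicle, 3xTg vehicle and LP-10d 3xTg.

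Hnrnpa3 was also set against its close relatives in the hnRNP A/B family. Hnrnpa1 had a log2 fold change of 0.13 in 3xTg vehicle against WT vehicle. The FPKM ratio of Hnrnpa1 to Hnrnpa3 was 5.94, 5.84 and 5.09 in WT vehicle, 9.36, 9.30 and 9.67 in 3xTg vehicle, and 7.69, 6.29 and 6.90 in LP-10d libraries. That of Hnrnpa2b1, the third close relative, to Hnrnpa3 was 3.53 ± 0.24, 5.29 ± 0.17 and 4.16 ± 0.21 (SD, n = 3 each). In both ratios, which share Hnrnpa3 as the denominator, the 3 groups were separate. The ratio of Hnrnpa1 to Hnrnpa2b1, which leaves Hnrnpa3 out, was 1.67, 1.55 and 1.56 in WT vehicle, 1.73, 1.73 and 1.90 in 3xTg vehicle, and 1.78, 1.61 and 1.62 in LP-10d libraries. There WT vehicle and 3xTg vehicle did not overlap, and LP-10d overlapped both.

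Upstream sequence is shown for 3 of the 8 lower members, whose stretch from 150 to 31 bases before the RefSeq start touches no annotated exon. The stretches of Hnrnpm, Ptbp1, Sf3a2 and Srsf10 lie in annotated exons, and that of Sf3b4 was not examined. The sequences are RefSeq's on GRCm38.p6, printed 5′ to 3′ on the gene's strand, with matches to the motifs below in capitals. Hnrnpa3 lies on chromosome 2 (gene at chr2:75659261-75669407, plus strand, stretch chr2:75659109-75659228), Tra2b on chromosome 16 (gene at chr16:22244549-22266005, minus strand, stretch chr16:22266036-22266155) and Rbfox1 on chromosome 16 (gene at chr16:5885355-7411526, plus strand, stretch chr16:5884643-5884762). The RefSeq start of Rbfox1 used is 562 bases from the deposited gene start, that of Hnrnpa3 2 bases and that of Tra2b 0 bases.
Hnrnpa3: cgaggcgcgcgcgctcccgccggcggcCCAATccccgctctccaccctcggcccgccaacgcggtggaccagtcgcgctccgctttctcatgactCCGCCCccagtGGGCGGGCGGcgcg
Tra2b: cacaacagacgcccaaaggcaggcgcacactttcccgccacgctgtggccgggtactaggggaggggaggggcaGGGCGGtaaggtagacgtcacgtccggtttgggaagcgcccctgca
Rbfox1: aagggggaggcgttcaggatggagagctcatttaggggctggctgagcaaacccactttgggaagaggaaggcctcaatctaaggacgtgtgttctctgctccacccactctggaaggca

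The Hnrnpa3 stretch is GC-rich (78.3%) with 21 CpG dinucleotides, a CCAAT box and 3 matches to the SP1 motif, of which 2 overlap. Tra2b has 66.7% GC, 10 CpGs and 1 SP1 match. Rbfox1 has 55.8% GC, 2 CpGs and no match to the 7 motifs searched. Over the 61 members with a RefSeq window, the 250 bases before the start had a median GC content of 61.6% and 19 CpGs, against 52.0% and 6 CpGs in all 27025 genes with one. On both strands 7 motifs were searched. GGGCGG (SP1) was in 62.3% of members and 32.9% of all genes, CCGGAAG (ETS) in 19.7% and 7.05%, and CCAAT in 42.6% and 34.5%. TATAAA was in 13.1% and 12.97%, TGACGTCA (CRE) in 3.28% and 1.62%, the 10-base NRF1 palindrome in 1.64% and 0.781%, and AAGATGGCG (YY1) in 1.64% and 0.607%. The 2 sets are not alike in how windows were picked. Members have the window nearest the deposited gene start, and all genes the first one listed, with no filter on biotype. The all-gene set also includes many CpG-poor promoters, so these shares describe sequence composition and were not tested.

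The effect of LP-10d was asked by comparing LP-10d 3xTg with 3xTg vehicle. Hnrnpa3 was again first among the members, higher in all 3 LP-10d libraries than in any 3xTg vehicle library, with a log2 fold change of 0.40 ± 0.09. Its unadjusted edgeR p was 0.001 and its rank 3 of 17396 genes, but the adjusted p was 1.00. This comparison shares the 3xTg vehicle libraries with the comparison against WT vehicle, so a low level there lowers 1 value and raises the other. With edgeR 0 of 67 members passed, as did 0% of all genes, and DESeq2 called 0 members (0.00575% of all genes). At an unadjusted p under 0.05 there was 1 member, Hnrnpa3 (1.49%), against 2.9% of all genes, or 0.948% counting higher levels only.

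The members' median log2 fold change was 0.00, with 35 members above 0 (49.9% of all genes) and 32 below it (50.1%). In this comparison 15 of 20 hnRNPs lay above 0, and 3 of 3 Rbfox and 2 of 2 Nova proteins below. Hnrnpk was at 246, 233 and 243 CPM in the WT vehicle libraries, 223, 226 and 229 CPM in the 3xTg vehicle libraries and 247, 242 and 248 CPM in LP-10d libraries. Every 3xTg vehicle library was below every library of the other groups, but the log2 fold change with LP-10d was 0.12 ± 0.06 with an adjusted p of 1.00. Groups that do not overlap were found for 5 members that were higher (7.46%, against 5.82% of all genes) and 3 that were lower (4.48%, against 5.81%).

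The 5 were Hnrnpa3, Hnrnpdl, Hnrnpk, Hnrnpul2 and Sf3a2, and the 3 were Celf5, Hnrnpl and Nova2. Over both comparisons, 3xTg vehicle lay below all libraries of both other groups for Hnrnpa3, Hnrnpk and Sf3a2, 3 of 67 members against 1.51% of all genes. It lay above them for Hnrnpl, an hnRNP that binds CA repeats, named after its values were seen, 1 of 67 against 2.06%. Srpk1, one of the kinases that load SR proteins into the nucleus, had a log2 fold change of -0.15 ± 0.08 with LP-10d. Srpk2 and Srpk3 had -0.01 and 0.03. The others closest to a difference were Tra2a (-0.14), Srrm3 (-0.12), Nova2 (-0.09), Hnrnpr (0.09) and Tra2b (0.09).

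LP-10d 3xTg was also set against WT vehicle, to show where treated 3xTg libraries differed from WT. With edgeR 0 of 67 members passed (0% of all genes), and DESeq2 called 0 members (0.265% of all genes). At an unadjusted p under 0.05 there were 8 members, 11.9%, against 8.75% of all genes. Of the 8, 2 were higher (2.99%, against 4.08% of all genes) and 6 lower (8.96%, against 4.67%). The members' median log2 fold change was -0.04, with 43 below 0 (50.5% of all genes) and 24 above (49.5%). Groups did not overlap for 2 higher members (2.99%, against 7.49% of all genes) and 11 lower ones (16.4%, against 6.89%). Celf6, a brain-enriched Celf protein, was at 26.0, 23.5 and 22.3 CPM in the WT vehicle libraries, 29.0, 28.8 and 25.4 CPM in the 3xTg vehicle libraries and 30.1, 32.7 and 26.9 CPM in LP-10d libraries. Its log2 fold change against WT vehicle was 0.32 ± 0.11, with an adjusted p of 0.55. Hnrnpdl, which regulates its own mRNA by alternative splicing, was at 191, 193 and 171 CPM, then 199.6, 199 and 210.1 CPM, then 214, 213 and 214 CPM. Both 3xTg groups were above WT vehicle, with a log2 fold change of 0.21 ± 0.07 for LP-10d libraries. WT vehicle replicate 3 was the lowest of the 9 libraries for Celf6 and for Hnrnpdl. Leaving out 1 library, the log2 fold change of LP-10d libraries lay between 0.25 and 0.39 for Celf6 and between 0.15 and 0.24 for Hnrnpdl. The lower members were Hnrnpa3, Hnrnpm, Ptbp1, Rbfox1, Rbfox3 and Tra2a, from -0.58 for Rbfox1 to -0.21 for Tra2a. Rbfox3 was at 339, 309 and 399 CPM in the WT vehicle libraries, 312, 288 and 319 CPM in the 3xTg vehicle libraries and 284, 278 and 306 CPM in LP-10d libraries. WT vehicle replicate 3 was the highest of the 9 libraries for it. Without that library the log2 fold change against WT vehicle went from -0.58 to -0.24 for Rbfox1, from -0.44 to -0.19 for Ptbp1 and from -0.27 to -0.16 for Rbfox3.

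Other genes of the splicing machinery gave no call in any of the 3 comparisons with edgeR or DESeq2. In 3xTg vehicle against WT vehicle, 11 kinases of the Clk, Dyrk and Gsk3 families with Prpf4b were tested. They act on SR proteins or are related to kinases that do. At an unadjusted p under 0.05, 1 of the 11, Dyrk3, was lower (9.09%, against 7.08% of all genes). Its log2 fold change was -0.36, while Clk1 was at -0.20 and Clk2 at -0.19. Of 53 core snRNP and spliceosome genes, 4 were lower at that p, 7.55% against 7.08% of all genes, and 0 were higher, against 7%. The 4 were led by Snrpd1 (-0.46), Snrpc (-0.29) and Snrpd3 (-0.25), which encode snRNP proteins. Of 55 other tested splicing regulators, 8 were lower and 1 higher, with Rbm38 at -0.64, Rbmx at -0.31 and Rbm20, the titin splicing regulator, at 0.72. That is 14.5% lower, against 7.08% of all genes, and 1.82% higher, against 7%. Of 15 nonsense-mediated decay factors, 0 passed at that p, and the smallest p were those of Upf3b (-0.27), Smg5 (0.16) and Smg1 (0.15). The median log2 fold change was -0.12 in the other splicing regulators, -0.02 in the core genes and -0.04 in the kinases and in the decay factors.

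In LP-10d 3xTg against 3xTg vehicle 0 genes of these 4 lists passed at an unadjusted p under 0.05. Of the 55 other regulators 41 lay above 0 and 14 below, and of the 53 core genes 37 above and 16 below, against 49.9% of all genes above 0. The same 3xTg vehicle libraries enter both comparisons. In LP-10d 3xTg against WT vehicle 3 of the 11 kinases were lower at that p, 27.3% against 4.67% of all genes: Clk1 (-0.29), Dyrk3 (-0.33) and Clk2 (-0.23). Among the other regulators 2 were higher (3.64%, against 4.08% of all genes) and 4 lower (7.27%, against 4.67%). Rbm38 was at -0.72 and Rbm20 at 0.56. Among the decay factors 1 was lower (6.67%, against 4.67%), Upf1 at -0.17, a gene named after its values were seen. None of the core genes passed at that p (0 of 53).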

How the data were processed

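The authors deposited raw gene counts and FPKM values, per the file headers; mm10 is the build named by the submitters' processing notes, and all 69 members have their deposited position in GENCODE M21. Libraries were made from hippocampal RNA with an MGI kit, per the labels' protocols. Aligner, counter and strand setting were not given in the sources used here. Overlapping genes therefore cannot be told apart: 30 members share exon bases with another gene, 7 of them 20% or more, and 16 have a near-identical gene elsewhere (BLAST 2.17.0). The deposited counts were tested with edgeR 4.0.16 (R 4.3.3), using filterByExpr, TMM scaling, 1 fit of all 9 libraries and quasi-likelihood tests, with p adjusted by Benjamini-Hochberg over 17396 genes and a threshold of 0.05. CPM were computed with TMM-scaled library sizes and compare libraries; the deposited FPKM compare genes. DESeq2 1.42.0, another scaling, no filter, only the 6 libraries compared, a replicate block and leaving out libraries were the alternatives. No pair of libraries of the same group agreed within sampling noise, and pairs across groups were not compared. In a test on simulated data for 3xTg vehicle against WT vehicle (17354 genes), edgeR recovered 25.4% of genes changed 1.5-fold and 73.1% changed 2-fold, with 5.19% of calls false, and DESeq2 38.8% and 82.1%, with 18.5% false. With 3 libraries a group, the smallest p of an exact permutation test would be 0.1.

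The members and lists were chosen with earlier results of these data known. By the rule used, the text names the 16 members with the smallest p in 3xTg vehicle against WT vehicle and 8 in each other comparison. It could also name the highest and lowest of each family group by FPKM, members of the small families, and up to 3 genes per further list. Other genes named were chosen after their values were seen: those listed for groups that do not overlap, in the paragraph on WT vehicle replicate 3 and among the relatives of Hnrnpa3. The check of near-identical genes and the promoter search were also added then.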

Additional observations from a re-analysis of the deposited data

How the results depend on the processing

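In every alternative run, 0 members passed in any comparison, apart from Hnrnpa3 with DESeq2 in 3xTg vehicle against WT vehicle (1 member). The members with the smallest p, 16 in 3xTg vehicle against WT vehicle and 8 in each other comparison, kept their direction in all of them, and other members were not followed singly. Over the alternatives Hnrnpa3 ranged from -0.66 to -0.59 on the log2 scale in that comparison, with adjusted p from 9.6e-07 to 0.226, and from 0.34 to 0.46 in LP-10d against 3xTg vehicle. All genes called there numbered 352 with DESeq2 and 3 without a filter, against 1 with edgeR, and 0 to 11 leaving out 1 library. In LP-10d 3xTg they numbered 1 against 3xTg vehicle and 46 against WT vehicle with DESeq2, and up to 2 leaving out 1 library. Members at an unadjusted p under 0.05 in 3xTg vehicle against WT vehicle were counted in each run beside the share of all genes. They numbered 5 in a fit of only the 6 libraries compared, against 10.2% of all genes. Leaving out 1 library gave 4 to 15. The 4 were without 3xTg vehicle replicate 1, against 12% of all genes, and the 15 without WT vehicle replicate 2, against 18.4%. In LP-10d against 3xTg vehicle the members at that p numbered 2 with DESeq2 and 2 with only the 6 libraries, against 2.45% and 6.02% of all genes. Leaving out 1 library gave 1 to 2, against 1.7% to 5.25%. With both libraries that stand apart left out there were 4, against 5.26%. In LP-10d 3xTg against WT vehicle they numbered 3 to 18 leaving out 1 library. The 3 were without LP-10d 3xTg replicate 1, against 4.61% of all genes, and the 18 without WT vehicle replicate 2, against 14.7%. The members' median log2 fold change there lay between -0.072 and -0.032. The cause of these differences was not tested.

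Same-numbered replicates correlated from -0.17 to 0.38 in their deviations from the group means, over 0.1 in 3 of 9 pairs, and 6 of 18 cases correlated best with their own number, so the numbers were not taken to pair the libraries. The replicate number was also used as a block. In 3xTg vehicle against WT vehicle, 1 member was then higher and 9 were lower at an unadjusted p under 0.05. In the same fit 13.6% of all genes passed at that p, and 6.85% of all genes passed with a lower level. The block changed no call.

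At this depth and spread, a difference of 1.5-fold would often be missed, and members with low counts, such as Mbnl3 and U2af1l4, cannot be compared.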
